A study of Mus musculus with 24 samples.

Results

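The comparison described here asked which RNA and ribosome footprint changes follow loss of 1 Rps6 allele in mouse forelimbs that lack Trp53. It used 12 of the 24 libraries of the series, chosen by their genotype labels: 6 of RNA and 6 of ribosome-protected fragments (RPF), each with 3 replicates of Rps6 het and 3 of Rps6 WT. The Rps6 het, Trp53 null embryos were Prx1Cre;Rps6lox/+;Trp53-/-, and the Rps6 WT, Trp53 null embryos were Rps6lox/+;Trp53-/-. Both groups therefore carried 1 floxed Rps6 allele and no functional Trp53, and they differed in the Prx1Cre transgene, so the effect of Cre itself and that of Rps6 loss cannot be told apart. Prx1Cre is active in the mesenchyme of the limb bud, while ectoderm, blood and vessel cells of the same limb keep both Rps6 alleles and are part of every lysate. Each replicate joined the E10.5 forelimb material of a pair of embryos of 1 genotype, and its RNA and RPF libraries came from aliquots of the same lysates. The other 12 libraries hold the same Rps6 comparison with Trp53 intact, Prx1Cre;Rps6lox/+;Trp53+/+ against Rps6lox/+;Trp53+/+, also 3 against 3. They show where the response without Trp53 differs, and they were fitted in the same models. The filter, scaling and spread behind the p-values without Trp53 therefore draw on them too.

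Rps6 is a protein of the small ribosomal subunit. When such a protein is in short supply, ribosome assembly is disturbed, unassembled ribosomal proteins can bind and block Mdm2, and p53, the transcription factor encoded by Trp53, accumulates and changes the transcription of its target genes. Ribosome profiling sequences the stretches of mRNA that ribosomes shield from RNase, so the footprints on a coding sequence report how many ribosomes sit on it, while RNA sequencing of the same lysate reports how much of the transcript is there. Footprints that change with the RNA follow the amount of transcript, and footprints that change alone mean more or fewer ribosomes per transcript, relative to other transcripts.

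The deposited table lists 21960 versioned Ensembl mouse transcripts without gene names, and 0 of these IDs matched the tables of genes used here. Transcripts are therefore given by ID, at most a pair in each direction, and others by counts and ranges. The level of Rps6 and Trp53 and of limb mesenchyme, ectoderm and blood markers was not analysed here for the same reason, and whether a transcript shares reads with a copy or an overlapping gene is not known. Whether a transcript given by ID comes from Rps6, the floxed gene, or from Trp53 is not known either. The 6 RNA libraries held 14291854 to 29104669 counts and the 6 RPF libraries 9935362 to 12333309. Levels are given as CPM, counts scaled to a common library total, and compare pools rather than transcripts, since they are not per length. In CPM, 3 counts were worth 0.103 to 0.21 in these RNA libraries and 0.243 to 0.302 in these RPF libraries. Replicates of 1 group correlated across transcripts with a Spearman's rho of 0.995 to 0.997. A chi-square test of their counts gave 1.81 to 18.4 per degree of freedom, with the highest values among the 3 Rps6 het RNA replicates (8.84 to 18.4), so no pair agreed within sampling noise. The labels do not say whether the pools came from separate litters, and p-values measure the spread between these pools.

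Without Trp53, few transcripts passed the test of a change in RNA and more passed it in footprints. Of 14411 transcripts tested in RNA, 3 were higher and 7 lower in Rps6 het than in Rps6 WT at an adjusted p under 0.05 by edgeR's quasi-likelihood test (called, below), which is 0.0694% of those tested (0.0208% higher and 0.0486% lower). Of 12147 transcripts tested in RPF, 75 were called higher and 35 lower, or 0.906% (0.617% higher and 0.288% lower). At an unadjusted p under 0.05, 1625 transcripts passed in RNA and 1452 in RPF, so the numbers of the 2 library kinds were closer before adjustment. Among the 50 transcripts with the most footprints, the median standard error of the log2 change was 0.0494 in RNA and 0.0372 in RPF. Among those ranked below 2000 it was 0.0803 and 0.0989. The part of this spread in the difference between the counts was not tested. The 10 RNA calls and 110 RPF calls shared 4 transcripts, 2 higher and 2 lower, which leaves 116 transcripts called in either kind. These counts depended on single pools. The RPF count was 60 without Rps6 WT replicate 1, 61 without Rps6 WT replicate 2 and 72 without Rps6 het replicate 3. The RNA count was 4 without Rps6 het replicate 1, 5 without Rps6 het replicate 3 or Rps6 WT replicate 2, and 47 without Rps6 het replicate 2. With Rps6 het replicate 3 and Rps6 WT replicate 2 both left out, a choice made after earlier results were seen, 42 RPF calls (31 higher, 11 lower) and 5 RNA calls were made, and 40 of these 42 were among the 110. Values given for the 110 below are for all pools unless stated.

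Among the called transcripts, the one that rose most in both library kinds was ENSMUST00000001672.11. Its RNA level was 58.6, 60.5 and 64.8 CPM in the Rps6 WT pools and 119.9, 125.3 and 123 CPM in the Rps6 het pools. Its RPF level was 18.6, 15 and 19.3 CPM in Rps6 WT and 51.5, 65.7 and 53.8 CPM in Rps6 het. No Rps6 het pool came near a Rps6 WT pool in either kind; among all transcripts tested, the pools of the 2 groups did not overlap for 15.1% in RNA and 16.6% in RPF (8.41% higher and 8.2% lower). The RNA change was a log2 fold change of 1.00 ± 0.047 (SE, n = 3 against 3, edgeR adjusted p = 8.11e-09) and the RPF change was 1.69 ± 0.09 (SE, edgeR adjusted p = 1.92e-12), a 2-fold rise in RNA and a 3.24-fold rise in footprints. The difference between the RPF and RNA changes, 0.69 ± 0.108 on the log2 scale (SE), was itself called (edgeR adjusted p = 0.00511). That call was lost with the Trp53 null pools fitted alone (edgeR adjusted p = 0.107) and without Rps6 WT replicate 2 (edgeR adjusted p = 0.0947), and it held under the other 11 of 13 alternatives. With Trp53 intact the log2 changes were 1.05 in RNA and 1.98 in RPF, and the difference between the backgrounds was not called in either kind (edgeR adjusted p = 0.685 and 0.19). This transcript therefore rose in both backgrounds.

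ENSMUST00000166123.8, the other transcript higher in both kinds, changed less and was more abundant. Its RNA level was 357, 369 and 370 CPM in Rps6 WT and 467, 497 and 457 CPM in Rps6 het, and its RPF level was 194, 195 and 205 CPM in Rps6 WT and 252, 278 and 260 CPM in Rps6 het. The groups did not overlap. The log2 changes were nearly equal in RNA (0.37 ± 0.046 SE, edgeR adjusted p = 0.00165) and RPF (0.41 ± 0.042 SE, edgeR adjusted p = 1.78e-06), and footprints per RNA were not called changed (log2 difference 0.04, edgeR adjusted p = 1). With Trp53 intact the changes were 0.52 and 0.47, and neither difference between the backgrounds was called (edgeR adjusted p = 0.166 in RNA and 0.69 in RPF).

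ENSMUST00000102814.4 was the most abundant of the transcripts that fell in both kinds, and whether it comes from Rps6 itself is not known. Its RNA level was 1601, 1677 and 1540 CPM in Rps6 WT and 924, 982 and 959 CPM in Rps6 het, or 59.5% of the Rps6 WT mean. Its RPF level was 1715, 1719 and 1721 CPM in Rps6 WT and 1178, 1208 and 1188 CPM in Rps6 het, or 69.3% of the Rps6 WT mean. The Rps6 het pools lay far below the Rps6 WT pools, and the 3 Rps6 WT footprint values were almost the same. The log2 change was -0.75 ± 0.043 in RNA (SE, edgeR adjusted p = 8.45e-08) and -0.53 ± 0.035 in RPF (SE, edgeR adjusted p = 1.31e-10). With Trp53 intact it also fell, by less, to 72.4% of the Rps6 WT mean in RNA and 84.7% in RPF (log2 changes of -0.47 and -0.24). The drop was larger without Trp53, by 0.28 ± 0.061 on the log2 scale in RNA (SE, edgeR adjusted p = 0.0102) and by 0.29 ± 0.049 in RPF (SE, edgeR adjusted p = 0.000399). Since RNA fell further than footprints, the ratio of footprints to RNA was higher in Rps6 het by 0.22 ± 0.052 (log2, SE). That ratio change was not called without the pool as a block (edgeR adjusted p = 0.106) and was called with it (edgeR adjusted p = 0.0317).

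ENSMUST00000043867.10 fell by about the same factor in RNA and in footprints. Its RNA level was 67.2, 71 and 69.8 CPM in Rps6 WT and 30.9, 30.8 and 37.6 CPM in Rps6 het. Its RPF level was 18, 16.4 and 13.9 CPM in Rps6 WT and 7.34, 7.55 and 8.63 CPM in Rps6 het. Again the groups did not overlap. The log2 change was -1.06 ± 0.077 in RNA (SE, edgeR adjusted p = 1.72e-06) and -1.04 ± 0.115 in RPF (SE, edgeR adjusted p = 5.66e-06), and their difference was 0.02 (edgeR adjusted p = 1). It was lower in Rps6 het with Trp53 intact as well, with log2 changes of -0.81 in RNA and -0.67 in RPF, and neither difference between backgrounds was called (edgeR adjusted p = 0.14 and 0.172).

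**Figure D1:**
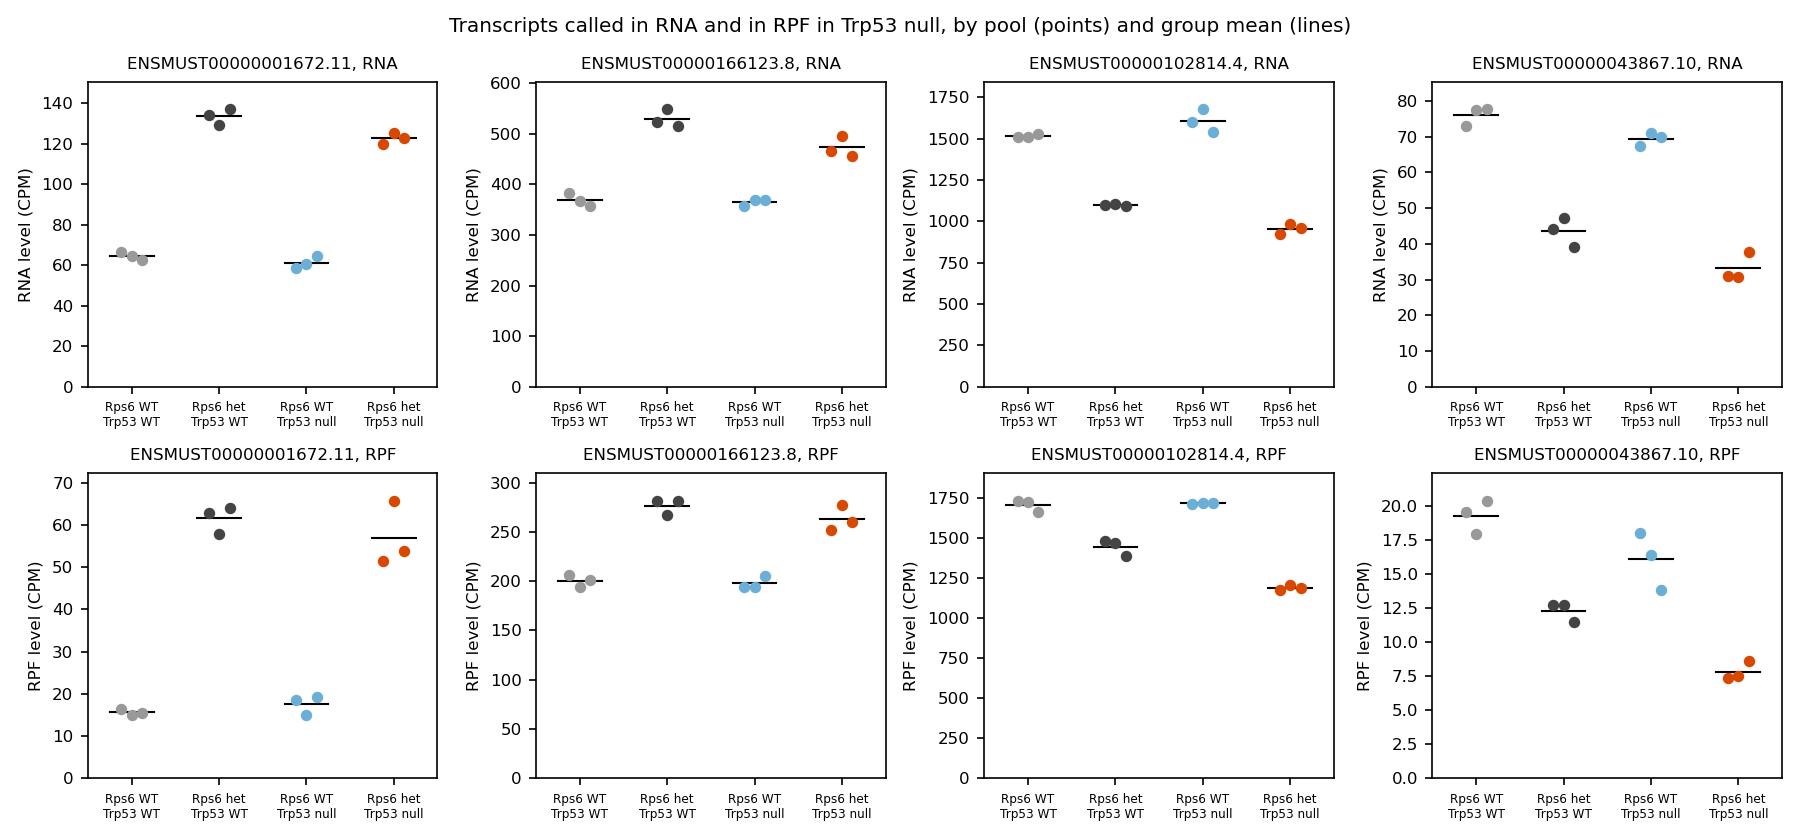
Levels of the 4 transcripts called in both RNA and RPF, in CPM on linear axes that start at 0, for Rps6 WT and Rps6 het pools in each Trp53 background. Points are single pools and lines are group means; without Trp53 the Rps6 WT and Rps6 het points are separated in every panel, and ENSMUST00000102814.4 shows the wider gap without Trp53.

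The other 6 RNA calls did not pass in footprints. Of these 1 was higher and 5 were lower. A lower one just missed the threshold in footprints (log2 change -0.16, edgeR adjusted p = 0.0516). The rest had edgeR adjusted p from 0.465 to 0.908 there. The higher one was a low transcript, which went from 12.1 ± 0.365 to 16.9 ± 0.905 CPM of RNA (SD, n = 3 each), with footprints of 5.55 and 5.31 CPM that overlapped between groups. In the 5 lower ones RNA log2 changes ran from -0.49 to -0.27, and all 5 had RPF changes below 0, from -0.49 to -0.06. The most abundant of them went from 1818 CPM ± 72.3 to 1504 CPM ± 37.4 in RNA (SD, n = 3 each), while its footprints were 2225 CPM ± 51.7 and 2127 CPM ± 66.6. Footprints per RNA were called higher for 3 of these 5 with the pool as a block (0.355% of all tested). Without the block they were called higher for 0 of 5 (0.178% of all tested). These 5 were chosen for lower RNA without a footprint call, and such a choice favours a higher ratio. With Trp53 intact 7 of all 10 RNA calls were called in RNA in the same direction, 2 of 3 higher and 5 of 7 lower, against 24.8% of all tested (13.1% higher and 11.7% lower). The RNA change differed between the backgrounds for 3 of the 10, and 9.55% of all transcripts tested passed that test (5.07% with the higher value in Trp53 WT and 4.48% with the higher value in Trp53 null). For the 2 of those 3 that were lower, the drop was larger without Trp53, and the 1 that was higher rose more without it.

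The 75 transcripts with more footprints changed by a small and even amount. Their RPF log2 changes ran from 0.15 to 1.69 with a median of 0.25, and the middle 50% lay between 0.20 and 0.29, against a median near 0 for all tested (quartiles -0.07 and 0.08). Only 2 of the 75 were over 0.5 in size. In RNA the same 75 had a median log2 change of -0.04, with 27 above and 48 below 0, and 2 called. Per pool, the 73 without an RNA call stood 0.217, 0.254 and 0.258 above the Rps6 WT, Trp53 null mean in footprints (median log2 ratios) in Rps6 het replicates 1, 2 and 3, and all 73 were above it in each pool. In RNA the same pools stood at -0.0238, -0.0156 and -0.0724, with 33, 31 and 26 of 73 above that mean. The 3 Rps6 WT pools, from which the mean was made, ran from -0.0383 to 0.046 in RNA and from -0.0269 to 0.0177 in footprints, so the RNA medians of the Rps6 het pools overlapped those of Rps6 WT and the footprint medians did not. Within pairs of RNA pools of the same number, which deviated together, the median RNA log2 difference of the 73 was below 0 in each pair, at -0.033, -0.0538 and -0.0137, with 43, 49 and 42 of 73 lower in Rps6 het. The medians of all transcripts tested were then between -0.00153 and -0.000516. The RPF values describe how these transcripts were chosen, while RNA entered only through the removal of the 2 with an RNA call. Whether fewer cells of a type or less RNA per cell underlie any of these differences cannot be told apart in such bulk samples.

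The 75 took a sizeable part of all footprints. They made up 4.54% to 4.68% of the RPF counts of the Rps6 WT pools and 5.28% to 5.44% of the Rps6 het pools. Of the RNA counts they made up 4.08% to 4.32% and 4.04% to 4.1%. The 75 were chosen for more footprints in these same Rps6 het pools, so their larger RPF share there follows from that choice. Their median RPF level in Rps6 WT was 423 CPM, against 23.5 CPM for all tested. Of the 100 transcripts with the most footprints, 17 were among the 75, and of the top 200, 32 were, against 0.617% of all tested. Ranks 1 to 50, 51 to 100 and 101 to 200 also held 1, 3 and 2 of the 35 called lower (0.288% of all tested). The standard error of the log2 change also fell with level, from a median of 0.0989 among transcripts ranked below 2000 to 0.0372 in the top 50, so a change of the size seen here could pass more easily in abundant transcripts, and the part of depth in this skew was not tested. As a whole the top 50 had a median RPF change of -0.01, with 8 called higher and 1 lower. The 32 in the top 200 had a median RPF log2 change of 0.23 and a median RNA change of -0.07, with 3 of 32 above 0 in RNA. RNA changes of abundant transcripts lay below 0 more often than above it in any case: 34%, 34% and 42% of all transcripts at ranks 1 to 50, 51 to 100 and 101 to 200 were above 0. The other 43 had medians of 0.27 and 0.03.

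The 35 transcripts with fewer footprints were closer to their RNA. Their RPF log2 changes ran from -2.00 to -0.14 with a median of -0.23, and 5 were over 0.5 in size. Their median RNA change was -0.14, with 33 of 35 below 0, although only 2 were called in RNA. The RNA pools of the groups did not overlap, with Rps6 het lower, for 20 of the 35, against 7.31% of all tested. Among the 75, Rps6 het was higher without overlap for 16 (7.75% of all tested) and lower for 5. Per pool, the 33 without an RNA call stood at -0.224, -0.266 and -0.229 in footprints and -0.0903, -0.104 and -0.18 in RNA (median log2 ratios to the Rps6 WT mean, replicates 1 to 3 of Rps6 het). The Rps6 WT pools ran from -0.0376 to 0.0263 in RNA, above all 3 of the Rps6 het pools. The 35 were 1.34% to 1.38% of RPF counts in Rps6 WT and 1.11% to 1.15% in Rps6 het. These RPF values follow from how the 35 were chosen. Their largest change belonged to a transcript with footprints of 0.884 ± 0.115 (Rps6 WT) and 0.205 ± 0.116 CPM (Rps6 het; SD, n = 3 each). The latter mean is under the level of 3 counts, so this change rests on few counts, and with Trp53 intact the same transcript had a log2 change of 0.90 that was not called.

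**Figure D2:**
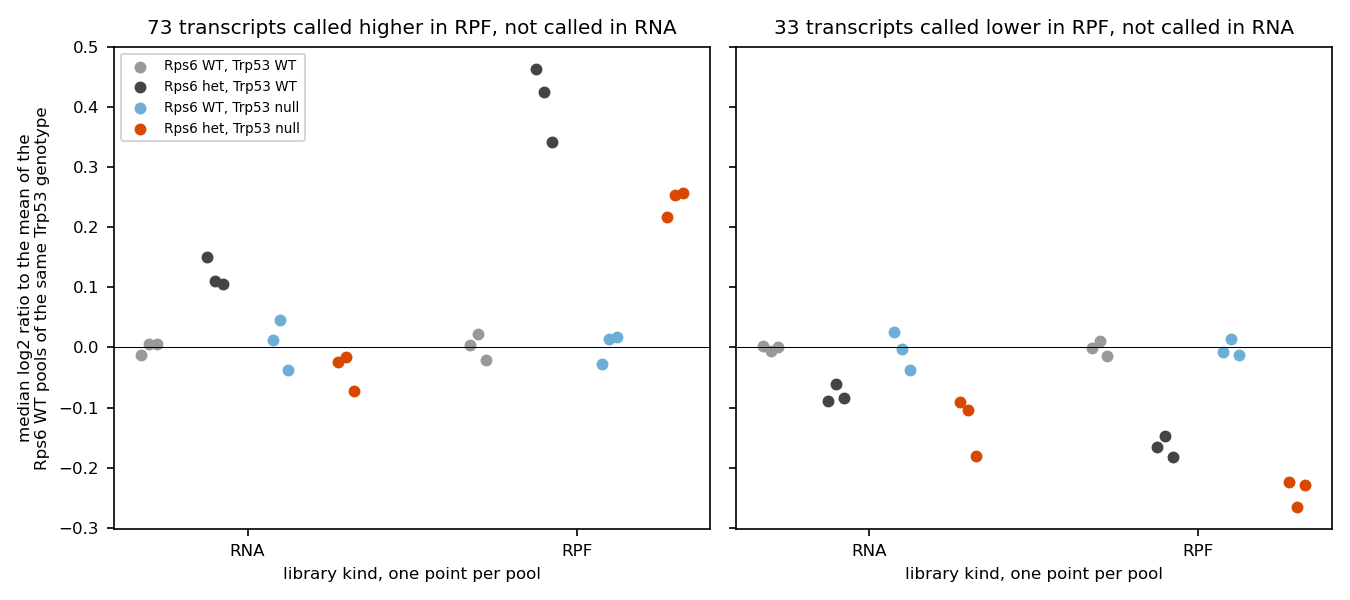
Median log2 ratio to the Rps6 WT mean of the same background, per pool, for the 73 transcripts with more and the 33 with fewer footprints without Trp53 that were not called in RNA. Each point is 1 pool. Without Trp53 the footprint medians of the Rps6 het pools are 0.217 to 0.258 for the first set and -0.266 to -0.224 for the second. The RNA medians of the same pools lie nearer 0.

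**Figure D3:**
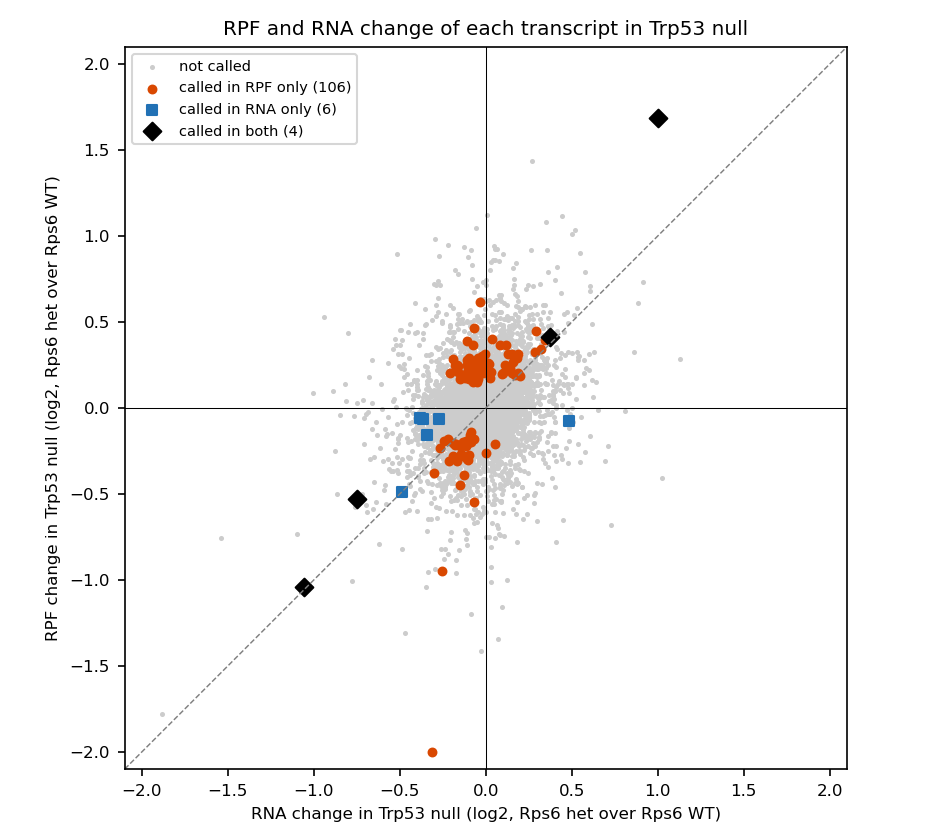
RPF against RNA log2 fold change, Rps6 het against Rps6 WT without Trp53, for 12114 transcripts tested in both kinds; 2 lie outside the axes. Grey points are not called, colours mark calls in RNA, RPF or both; most RPF calls sit above or below the bulk with RNA changes close to 0.

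The change in footprints per RNA, tested over all 24 libraries as the RPF change less the RNA change, uses the same RPF counts and is no separate evidence. Of 14080 transcripts tested, 28 were called (0.199%), 25 higher (0.178%) and 3 lower (0.0213%). All 25 higher calls were among the 75. With the pool that gave both libraries as a block there were 57 calls (0.405%), 50 higher (0.355%) and 7 lower (0.0497%), and 42 of the higher ones were among the 75. Of the 35 with fewer footprints, 2 were called lower without the block, and 3 lower and 1 higher with it. With the 12 Trp53 null libraries fitted alone 0 transcripts were called by edgeR (622 at an unadjusted p under 0.05). With 1 pool left out the count was 0 to 20, and it was 0 without Rps6 WT replicate 2, 1 without Rps6 WT replicate 1 or Rps6 het replicate 3, and 13 without Rps6 het replicate 1. DESeq2 called 63.

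The Trp53 WT libraries come from other embryos than those compared above, but were fitted in the same models. In them 3019 transcripts were called in RPF (24.9%, of which 13.2% higher and 11.7% lower) and 3580 in RNA (24.8%). Of the 75, 74 also had an RPF change above 0 with Trp53 intact and 68 were called higher, with a median log2 change of 0.42 against 0.25 without Trp53. They took 4.57% to 4.65% of RPF counts in the Rps6 WT, Trp53 WT pools and 5.68% to 6.09% in Rps6 het, Trp53 WT. In RNA 33 of the 75 were called higher with Trp53 intact (13.1% of all tested). The median RNA change of the 75 was 0.13 there and -0.04 without Trp53. Abundant transcripts as a whole were also mostly above 0 with Trp53 intact. At ranks 1 to 50, 51 to 100 and 101 to 200 by footprints, 82%, 74% and 78% were above 0 in RNA. Their median RNA changes were 0.08, 0.10 and 0.11. In RPF 82%, 80% and 74% of them were above 0, with medians of 0.08, 0.11 and 0.09. The RPF change was larger with Trp53 intact for 62 of the 75. A difference between backgrounds was called for 34 of the 75 (7.06% of all tested), 32 with the larger rise in Trp53 WT (3.94%) and 2 with the larger rise in Trp53 null (3.11%). Among the 32 in the top 200 by footprints it was called for 25, all in the first direction, with medians of 0.45 with and 0.23 without Trp53.

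The 35 behaved otherwise. With Trp53 intact 29 of them were below 0 in RPF, 22 were called lower and 1 was called higher. Their median RPF change was -0.17, nearer 0 than the -0.23 without Trp53, and only 7 of the 35 fell further with Trp53 intact. The difference between backgrounds was called for 8 of 35 (7.06% of all tested). In 7 of these the change was more negative without Trp53, ENSMUST00000102814.4 among them, and in 1 it was more negative with Trp53 intact. Over both directions, 20 of the 110 were not called in the same direction with Trp53 intact, 7 of the 75 and 13 of the 35. The difference between the backgrounds was itself called for 8 of these 20 (2 and 6), against 7.06% of all tested. For the other 12 a response particular to the Trp53 null background was not shown. The 20 were picked by a call in 1 background that was not made in the other, which favours a called difference. The transcripts were chosen by their call without Trp53, and such a choice favours values that are high in size there.

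**Figure D4:**
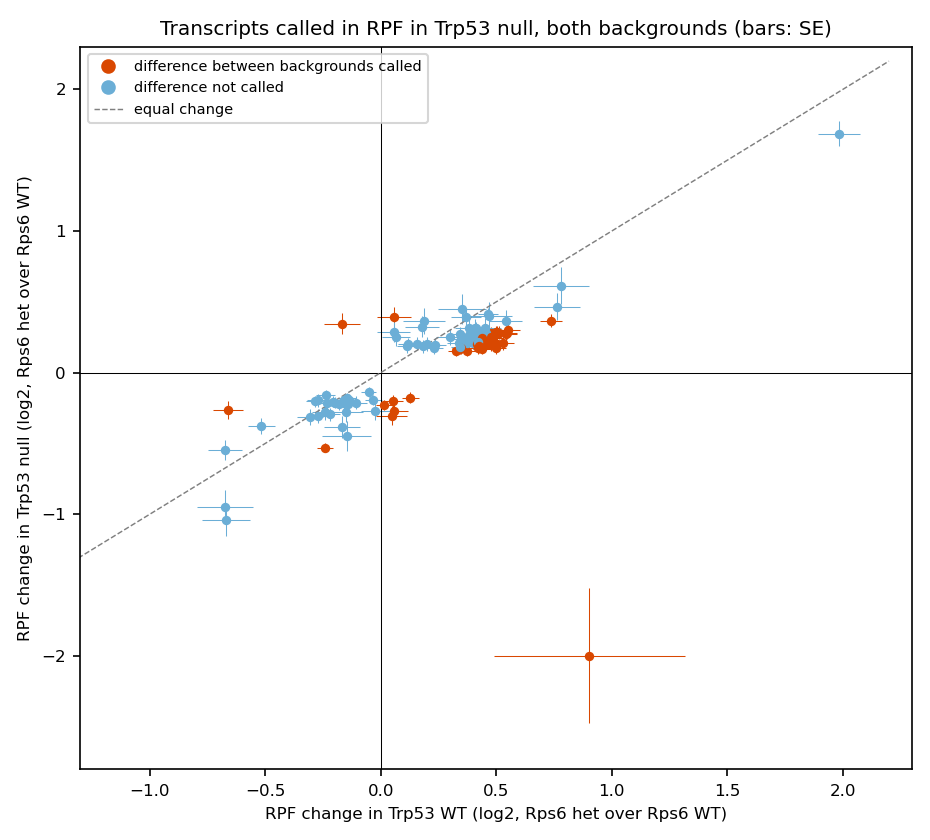
RPF log2 fold change without Trp53 (vertical axis) against that with Trp53 intact (horizontal axis) for the 110 transcripts called in RPF without Trp53, with standard errors; the dashed line marks equal change and orange points those whose difference between backgrounds was called. Most transcripts with more footprints lie between 0 and the line of equal change. Most of those with fewer footprints lie below that line, with the more negative change without Trp53.

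Seen from the other side, the transcripts that changed with Trp53 intact had small median changes without it. They were grouped by the size of their Trp53 WT change, in each library kind. Of the 112 whose RNA rose by over 1 on the log2 scale (median 1.29), the median RNA change without Trp53 was -0.05, 43.8% kept the direction and 1 was called in it. Of the 399 with rises of 0.5 to 1 (median 0.65) the median was -0.03 and 43.4% kept the direction. Of the 86 whose RNA fell by over 1 (median -1.29) the median was -0.11, 70.9% kept the direction and 0 were called. In RNA the direction of the larger rises was therefore kept by under 50% of transcripts, and that of the larger drops by more. Smaller rises, which were most of the RNA rises, kept it more often. The direction was kept by 60.4% of 760 that rose by 0.25 to 0.5 and 62% of 621 that rose by less. Their medians without Trp53 were 0.02 and 0.03. Among smaller drops it was kept by 65.1% of 654 that fell by 0.25 to 0.5 and 49.8% of 628 that fell by less. Of all transcripts tested in RNA without Trp53, 0.0208% were called higher and 0.0486% lower.

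In footprints the share that kept its direction was highest for rises of middle size. Of 642 transcripts that rose by 0.25 to 0.5 with Trp53 intact (median 0.34), 82.6% were above 0 without Trp53, with a median of 0.09 and quartiles of 0.03 and 0.16, and 50 were called. Of 220 that rose by 0.5 to 1 (median 0.67) 74.1% were above 0, with a median of 0.13, and 11 were called. Of 65 that rose by over 1 (median 1.37), 58.5% were above 0, with a median of 0.08, and 1 was called. Of 671 that rose by under 0.25, 72% were above 0, with a median of 0.04, and 6 were called. Among transcripts whose footprints fell, the medians without Trp53 were -0.07 for 572 that fell by 0.25 to 0.5, -0.09 for 253 that fell by 0.5 to 1 and -0.10 for 99 that fell by more, and 75.3%, 69.6% and 64.6% kept the direction. In these bins 4, 5 and 0 were called lower without Trp53. Of 497 that fell by under 0.25, 75.9% kept the direction, with a median of -0.05, and 13 were called. Over all transcripts tested in both kinds 49.9% had an RPF change above 0 without Trp53. Of all transcripts tested in RPF without Trp53, 0.617% were called higher and 0.288% lower. The bins were set by the Trp53 WT values, and no test was made across them.

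**Figure D5:**
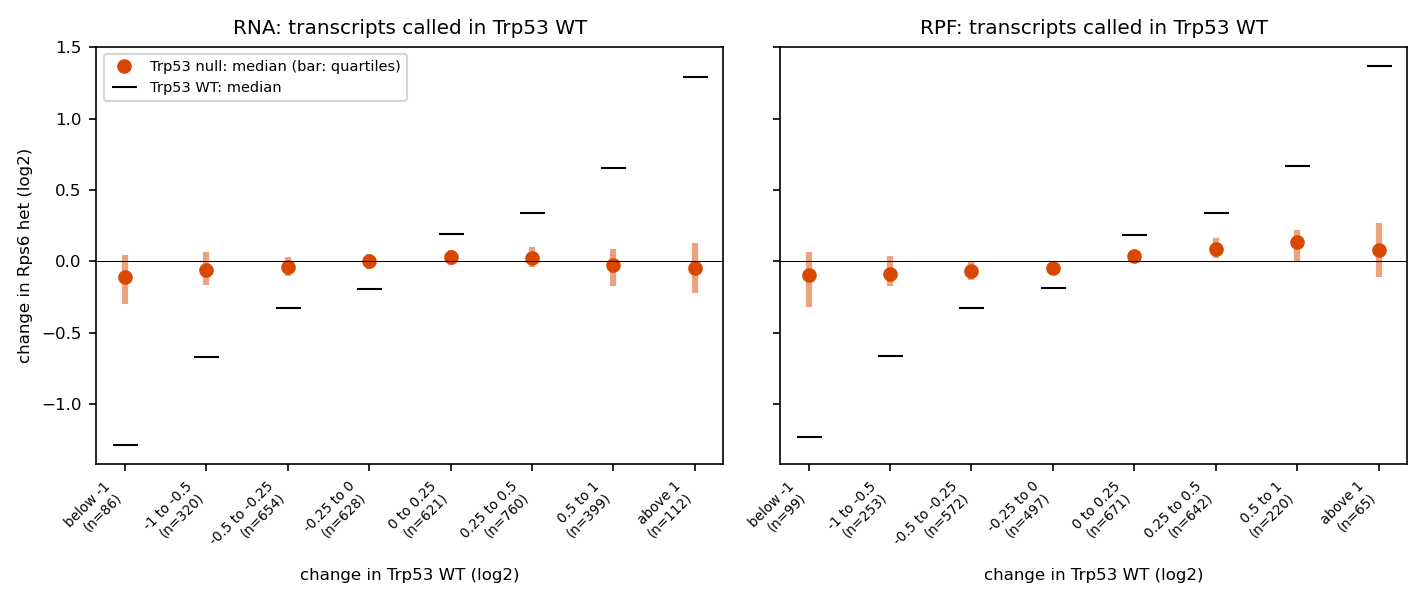
Log2 fold changes without Trp53 of the transcripts called with Trp53 intact, in bins of their Trp53 WT change, for RNA and RPF. Points are bin medians without Trp53, bars the middle 50% of transcripts and black ticks the bin medians with Trp53 intact; the RNA medians stay between -0.107 and 0.0276, and the RPF medians follow the direction of the Trp53 WT change in every bin.

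The transcripts with a footprint call with Trp53 intact were also split by their RNA call there, without a test between the sets. Among 615 transcripts with more footprints and no RNA call with Trp53 intact, the median RPF change was 0.23 with and 0.06 without Trp53, 75.8% were above 0 and 36 were called higher. Among 976 with both RNA and footprints higher, the medians were 0.32 and 0.07, 76.2% were above 0 without Trp53 and 32 were called higher. A difference of the RPF change between backgrounds was called for 14.6% of the first set and 37.4% of the second. Of all transcripts tested in both kinds, 7.07% passed that test. Both sets were chosen by a footprint call with Trp53 intact, and such a choice favours a called difference. The second set also had the larger median RPF change with Trp53 intact. The part of this larger change in its higher share was not tested. For fewer footprints the medians with and without Trp53 were -0.25 and -0.05 with no RNA call (623 transcripts, 11 called lower), and -0.36 and -0.07 with lower RNA (780 transcripts, 11 called lower). Of the 7568 transcripts called in neither kind with Trp53 intact, 6 were called higher and 8 lower in RPF without Trp53. Over all transcripts tested in RPF without Trp53, the shares called were 0.617% higher and 0.288% lower.

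The calls nearest the threshold show how narrow it was. The last RPF call had a log2 change of 0.36 at an adjusted p of 0.0494, and the first transcript left out had -0.16 at 0.0502. In RNA the last call had -0.49 at an adjusted p of 0.0389 and the first left out had -0.25 at 0.0528 (edgeR).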

How the data were processed

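Ribosome-protected fragments and rRNA-depleted total RNA were sequenced from E10.5 forelimb pools of 4 genotypes, 3 pools each. The authors deposited raw counts per transcript, whole numbers with no normalization; the table's name points to coding sequences for RPF and whole transcripts for RNA. Bowtie2, UMI-tools, GRCm38 and mm10 are named in the submitters' processing notes, with no role or version, so whether counts are of molecules is not given in the sources used here. Of 21960 rows, 238 were 0 in all libraries.

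Counts were tested with edgeR 4.0.16 (R 4.3.3) by the quasi-likelihood F test, with TMM scaling within a library kind, filterByExpr (minimum count 10, minimum total 15), all 4 genotypes in 1 model per kind and Benjamini-Hochberg adjustment over all transcripts tested at 0.05. CPM use TMM-scaled totals and are not per length. The difference between backgrounds is the log2 change with Trp53 intact minus the one without it. The SE is the size of the log2 change divided by the square root of the F statistic. Its spread therefore comes from all 4 genotypes in the model and is drawn towards that of other transcripts. Alternatives used DESeq2 1.42.0, limma-voom (limma 3.58.1), DESeq2's size factors, no filter, thinning, a replicate block, Trp53 null pools alone and pools left out. The code was tested on simulated data. The members and lists were chosen with earlier results of these data known.

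The rule for named transcripts (Rps6, Trp53, RNA calls, leading RPF calls, list members, and calls in both kinds) could be followed only in its last part, the calls in both kinds, because IDs without names were limited to a pair in each direction. Lists of p53 targets, ribosomal proteins and cell type markers could not be matched, and no sequence was printed. Same-numbered Rps6 het and Rps6 WT pools deviated together in RNA (correlations 0.163, 0.142 and 0.2 over transcripts) but not in RPF (-0.00525, -0.0274 and 0.0172), so the numbers, which come from the labels, were taken to pair RNA pools only. The main RNA test did not use this pairing. With the replicate block it made 12 RNA calls (3 higher, 9 lower). Calls of a difference between backgrounds in RNA were then 2000, against 1376 without the block. For footprints per RNA the pool is shared by lysate, per the labels' protocols, and the blocked value stands beside the unblocked one.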

Additional observations from a re-analysis of the deposited data

Results flagged for a closer look

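The Rps6 change of ENSMUST00000102814.4 differed between the Trp53 backgrounds by a test of the difference itself. The log2 change with Trp53 intact minus the one without it was 0.284 ± 0.0606 in RNA (SE, edgeR adjusted p = 0.0102) and 0.29 ± 0.0489 in RPF (SE, edgeR adjusted p = 0.000399), with a larger drop without Trp53 in both kinds.

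The same test was called for 3 of the 10 transcripts called in RNA without Trp53 and for 42 of the 110 called in RPF, or 38.2% against 7.06% of all tested. Of the 42, 32 were transcripts whose footprints rose more with Trp53 intact. Members were chosen by their change in 1 of the 2 backgrounds, so the shares are a description. Groups had 3 pools, too few for a check on single outlying samples.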

How the results depend on the processing

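Calls without Trp53 numbered 10 in RNA, 110 in RPF and 28 for footprints per RNA. DESeq2's size factors in edgeR, limma-voom and thinning where it was run gave counts within 1.5 times of these. With no filter on low counts there were 28 RNA calls (8 higher, 20 lower) and 285 RPF calls (174 higher, 111 lower). DESeq2 made 39 RNA calls (20 higher, 19 lower), which hold 8 of the 10, and 63 for footprints per RNA. With the Trp53 null pools fitted alone there were 4 RNA calls, 136 RPF calls (93 higher, 43 lower) and 0 for footprints per RNA. With the replicate block there were 12 RNA calls, 168 RPF calls (102 higher, 66 lower) and 39 for footprints per RNA (in RNA, not in RPF, every Rps6 het pool correlated best with the Rps6 WT pool of its number), and the pool block gave 57. Leaving out 1 pool gave 4 to 47 RNA calls (47 without Rps6 het replicate 2), 60 to 92 RPF calls and 0 to 20 for footprints per RNA. It gave 641 to 1806 calls of a difference between backgrounds in RNA (1376 with all pools) and 513 to 925 in RPF (857 with all pools). Leaving out both Rps6 het replicate 3 and Rps6 WT replicate 2, chosen after seeing the data, gave 5 RNA and 42 RPF calls. The 4 transcripts called in both kinds kept their direction and call in RNA and in RPF under the 14 alternatives run for those changes (highest adjusted p 0.0414), except that DESeq2 gave no adjusted p for ENSMUST00000043867.10 in RPF, which leaves 13. The pool block and the Trp53 WT pools left out were not among them. The cause of these shifts was not tested. Depth limits low transcripts, where the standard error is largest.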
